A study of Saccharomyces cerevisiae with 8 samples.

Results

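The 58 genes described here encode factors of *Saccharomyces cerevisiae* that assemble the large (60S) ribosomal subunit and carry it out of the nucleus. They were chosen by name: a gene entered if a probe set listed it as its only gene, and its brightest probe set stood for it. All 58 had such a probe set, among 5656 genes of the array (*MDN1* is listed under its synonym *REA1*), and 49 of the 58 passed a filter that left out the 20% of genes with the lowest mean signal, so that 4524 genes were tested in all. The arrays came from 4 samples of cells grown with gentamicin (numbers 5 to 8) and 4 control samples grown without it (numbers 1 to 4), all of 1 strain, 4073, whose genotype the labels do not give. Both groups were grown overnight in YPD, a rich medium, diluted and grown to mid-log phase. The gentamicin cells had been adapted to the drug, an aminoglycoside that binds ribosomal RNA, and were kept in it throughout, at 500 µg/ml per the sample labels. The description of the design writes the dose with mg in place of µg, so its unit is uncertain. The labels do not say whether the 4 samples of a group were separate cultures, so the p-values measure the spread between samples, which may be technical.

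The large subunit is built around the 25S, 5.8S and 5S ribosomal RNAs. Its first particles form in the nucleolus on the precursor RNA, where RNA helicases, RNA-binding proteins and methyltransferases fold and modify it. GTPases then act as checkpoints, the Rix1 complex and the large ATPase Mdn1 strip early factors from the particle in the nucleoplasm, and adaptors such as Nmd3 and Arx1 take it through the nuclear pore. In the cytoplasm the last factors leave and the subunit becomes able to join the small one. In yeast the genes of these factors are known to be expressed together with those of small-subunit assembly, and their expression follows growth conditions.

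Most genes of the pathway were lower with gentamicin. Of the 49 tested genes, 46 were lower and 0 were higher at an adjusted p under 0.05 (limma, Benjamini-Hochberg over 4524 genes), where 31.3% of all tested genes were lower and 15.5% were higher. At an unadjusted p under 0.05, 47 were lower and 0 higher by the same limma test. Unadjusted counts, here and below, have no share of all genes beside them. The decrease was at least 2-fold for 16 of the 49 (32.7%), against 2.45% of all tested genes. Of the other called genes, 26 fell between 1.5-fold and 2-fold and 4 by less than 1.5-fold. The median log2 difference, gentamicin minus control, was -0.92 for the 49 genes and -0.12 for all tested genes. The 3 genes that were not called were *MDN1*, *TIF6* and *NSA2*.

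The filter acts on the mean over both groups, so the same counts were taken without it. All 58 genes then entered, 54 were lower and 0 were higher (limma adjusted p under 0.05; 55 lower and 0 higher unadjusted), against 29.6% of 5656 genes lower. Of all genes called without the filter, 69.1% were lower and the rest higher. The median log2 difference of the 58 genes was -0.92. Every gentamicin array lay below every control array in 44 of the 49 tested genes, against 29.6% of all tested genes. Without the filter this held for 53 of all 58. No share over the 5656 genes is given beside that count, so nothing is concluded from it about these genes against others. Of the 58, *NOP16*, *EBP2*, *NSA2* and *TIF6* had overlapping groups, and *MDN1* had all 4 gentamicin arrays above all 4 controls.

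Array by array, the median log2 signal of the 49 tested genes minus that of all tested genes was -1.06, -0.95, -1.03 and -1.05 on gentamicin arrays 5 to 8, against -0.22, -0.27, -0.20 and -0.22 on control arrays 1 to 4. The groups of arrays did not overlap in this distance. The median signal of all 9335 probe sets was itself lower with gentamicin, at 321 to 338 against 381 to 398 in controls. The interquartile range of log2 signals was wider, at 2.13 to 2.203 with gentamicin against 1.87 to 1.94 in controls. The difference in median and that in interquartile range each gave an exact permutation p = 0.0286, the smallest that 4 against 4 arrays allow, or 0.0429 adjusted over 3 measures. The members' median log2 difference minus that of all tested genes was -0.80 as deposited and -0.68 after quantile normalization, which gives every array the same spread. For *ACT1*, the 3′ control signal over the 5′ one, a measure of RNA integrity, was 1.43 ± 0.0881 with gentamicin and 1.38 ± 0.107 in controls (SD, n = 4 each; exact permutation p = 0.486). Signals are relative to the rest of each array. The distance above therefore compares these transcripts with the other transcripts of the same array, and their amount per cell was not measured.

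**Figure D1:**
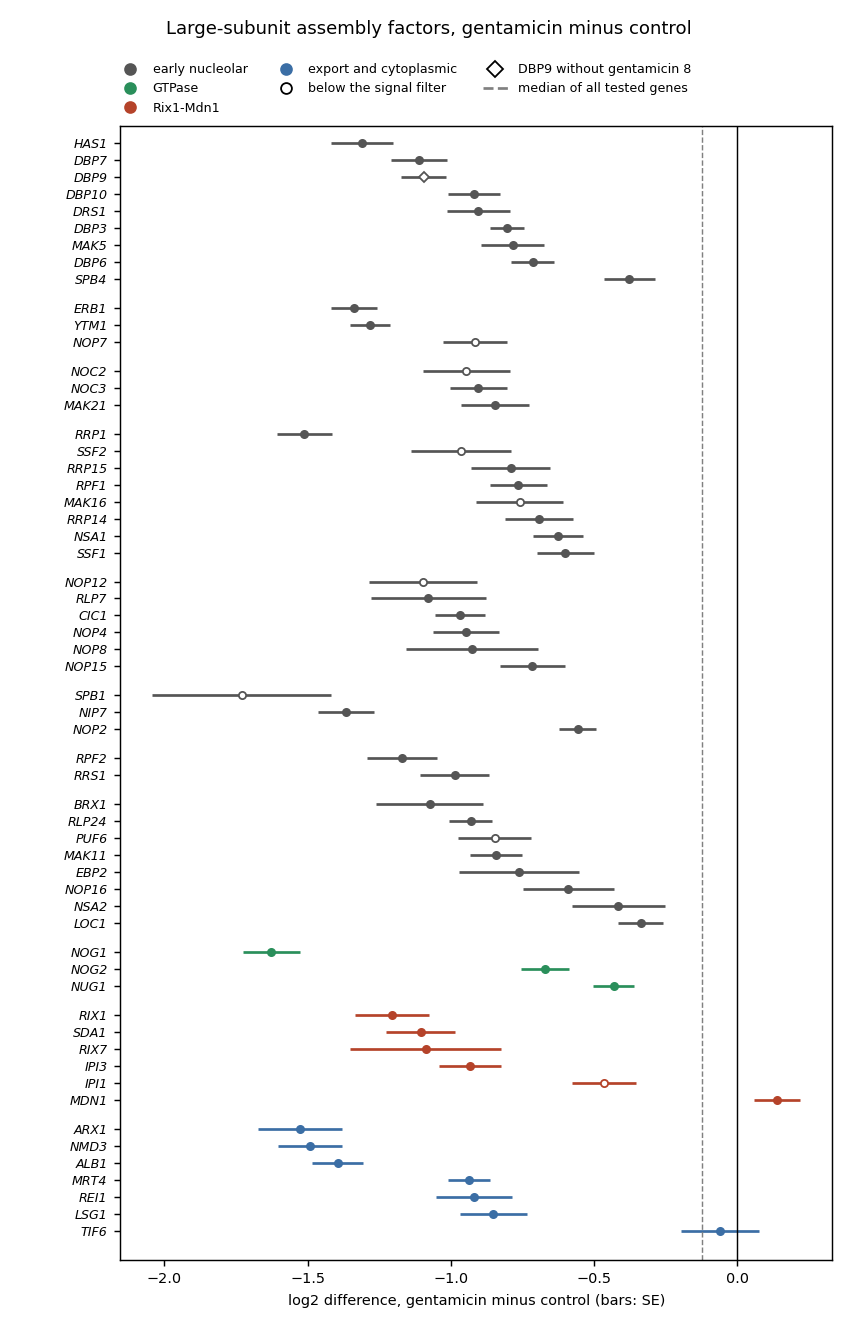
The log2 difference of each of the 58 genes, gentamicin minus control, is plotted on the horizontal axis with its standard error, grouped down the page by role and coloured by step. *DBP9* is drawn without its near-0 array; all but *MDN1* lie left of 0, and *MDN1* and *TIF6* lie right of the dashed median of all tested genes (-0.12).

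The RNA helicases, which unwind RNA duplexes on the first particles, were lower in 8 of 8 tested cases. *HAS1*, a DEAD-box helicase used in both subunits, had signals of 427, 459, 332 and 429 on gentamicin arrays 5 to 8, against 1057, 985, 1073 and 947 on control arrays 1 to 4. The 2 groups are far apart, and *HAS1* fell 2.48-fold (limma adjusted p = 2.86e-05). At the other end, *SPB4*, a helicase of 25S maturation, had 810.5, 722, 917 and 877 with gentamicin and 1139, 1121, 999.9 and 1046 in controls, a 1.30-fold decrease (adjusted p = 0.00793). Its groups do not overlap, but its call was lost under other scalings of the arrays (adjusted p = 0.0553 after quantile normalization, 0.282 with aligned array medians, over a range from 0.00421 to 0.282 for all alternatives).

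Between these 2 ends, *DBP7* fell 2.16-fold, *DBP10* 1.89-fold, *DRS1* 1.87-fold, *DBP3* 1.75-fold and *MAK5* 1.72-fold. *DBP6*, which with *DBP7* and *DBP9* belongs to the earliest helicases, had 869, 752, 815 and 791 with gentamicin and 1292, 1275, 1455 and 1272 in controls and fell 1.64-fold. *DBP9* had 331, 348, 335 and 0.0229 with gentamicin, against 719, 759.8, 724 and 686 in controls. Gentamicin 8 alone is near 0 here, which also placed *DBP9* below the filter. With that value left out the other 3 gentamicin arrays gave a 2.14-fold decrease (limma adjusted p = 2.11e-05), and with it kept and no filter *DBP9* was not called (adjusted p = 0.217).

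*ERB1*, *YTM1* and *NOP7* encode a complex that acts in the nucleolus before Ytm1 is pulled off the particle by Mdn1. *ERB1* had 609, 519, 562 and 533 with gentamicin and 1543, 1354, 1408 and 1311 in controls. *YTM1* had 715, 667, 749 and 674 with gentamicin and 1779.7, 1584, 1718 and 1745 in controls. Both fell by nearly the same factor, 2.53-fold and 2.43-fold. *NOP7*, below the filter, had 152, 133, 134 and 114 with gentamicin and 238, 242, 243 and 276 in controls, 1.88-fold lower without overlap (limma adjusted p without the filter = 0.000232).

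The Noc proteins accompany precursor particles from the nucleolus to the nucleoplasm. *NOC2*, the subunit shared by the 2 Noc complexes, had 86.9, 80.3, 62.3 and 59.1 with gentamicin and 148, 134, 144 and 124 in controls. Array controls for absent transcripts had a median signal of 4.75, and the highest reached 89.5. All 4 gentamicin values lie under that highest level, so the size of the decrease of *NOC2* is not resolved. *MAK21*, also known as *NOC1*, had 226, 286, 229 and 222 with gentamicin and 474, 389, 479 and 387 in controls, with no overlap, and fell 1.80-fold. *NOC3* fell 1.87-fold, to 213 ± 24.9 with gentamicin against 397 ± 10.7 in controls (SD, n = 4 each).

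Among the proteins of the Ssf1 and Nsa1 modules, which occupy neighbouring parts of the nucleolar particle, all 6 tested genes were lower. *RRP1* stood out within them, with 162, 157, 183 and 168 with gentamicin and 542, 464, 472 and 436 in controls, a 2.85-fold decrease (limma adjusted p = 7.63e-06). The other 5 tested genes fell less: *RRP15* 1.73-fold, *RPF1* 1.70-fold, *RRP14* 1.62-fold, *NSA1* 1.54-fold and *SSF1* 1.52-fold. *MAK16*, below the filter, had 151, 197, 122 and 142 with gentamicin and 243, 248, 297 and 238 in controls, 1.69-fold lower without overlap.

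*SSF1* and *SSF2* are paralogs that can replace each other in growing cells. *SSF1* had 478, 424, 509 and 498 with gentamicin and 759.9, 615, 744 and 782 in controls. *SSF2* had 64.5, 114, 81.7 and 71.2 with gentamicin and 167, 152, 165 and 147 in controls. Both sets of gentamicin values lie below all control values. The probe set of *SSF2* is by its name of a class shared between similar sequences, so its signal may include *SSF1*, and 3 of its 4 gentamicin values lie under the highest control for absent RNA. A second, dimmer probe set of *SSF2* had 14.5 to 38.7 with gentamicin and 42.6 to 66.9 in controls. All of these values lie under that control, so the level of *SSF2* is not resolved in either group.

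Of the RNA-binding factors of the first particles, all 5 tested genes were lower. *NOP15*, which binds the spacer between the 5.8S and 25S parts of the precursor, had 593, 602, 579 and 549.8 with gentamicin and 749.6, 1029, 994 and 1077 in controls and fell 1.64-fold. *CIC1* and *RLP7*, which sit on the same spacer, fell 1.96-fold and 2.11-fold. *NOP4* and *NOP8* fell 1.93-fold and 1.90-fold. *NOP12*, a factor of 5.8S folding, had 100.3, 109, 59.4 and 96.9 with gentamicin and 183, 182, 218 and 181 in controls. Its groups do not overlap, it was below the filter, and its lowest gentamicin value lies under the level of 89.5.

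*NOP2* and *SPB1* encode methyltransferases of 25S ribosomal RNA. *SPB1* had 85.6, 34.8, 85.4 and 105 with gentamicin and 278, 236, 255 and 193 in controls. Since 3 of its gentamicin values lie under 89.5 and the gene was below the filter, only the direction is resolved (limma adjusted p without the filter = 0.00198). *NOP2* had 1509, 1444, 1525 and 1546 with gentamicin and 2303, 2202, 2318 and 2052 in controls, tight groups that differ 1.47-fold. *NIP7*, a partner of Nop8, fell 2.58-fold, to 192 ± 16.3 with gentamicin against 496 ± 42.8 in controls (adjusted p = 1.5e-05).

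*RPF2* and *RRS1* encode partners that bring the 5S ribosomal RNA and its proteins to the particle. *RPF2* had 1099, 821, 1236 and 1025 with gentamicin and 2391, 2141, 2561 and 2229 in controls. *RRS1* had 320.4, 313, 264 and 229.9 with gentamicin and 617, 557, 541 and 506 in controls. The groups of both are separate, with decreases of 2.25-fold and 1.98-fold.

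The remaining nucleolar genes included *LOC1*, with the smallest decrease of the early steps. *BRX1* had 278, 502, 529 and 412 with gentamicin and 779, 906, 962 and 881 in controls and fell 2.11-fold. *EBP2*, whose product interacts with Brx1, fell 1.70-fold (limma adjusted p = 0.015), though gentamicin 7, at 1009, lay above control 1, at 949. *RLP24*, which resembles a ribosomal protein and holds its place until the cytoplasm, fell 1.91-fold. *MAK11*, another gene of the early nucleolar step, fell 1.79-fold. *PUF6*, a protein with RNA-binding repeats, was below the filter and had 91.7, 120.0, 106 and 112 with gentamicin against 185, 205, 218 and 166 in controls, 1.80-fold lower without overlap.

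*LOC1*, a partner of Puf6, had 931, 916, 1040.1 and 1031 with gentamicin and 1368, 1231, 1169.8 and 1184 in controls, a 1.26-fold decrease (adjusted p = 0.00711). *NOP16* fell 1.51-fold (adjusted p = 0.0134), with its highest gentamicin value, 739.6, above its lowest control value, 729. The call of *NOP16* was lost after quantile normalization (adjusted p = 0.0682). Those of *LOC1* and *NOP16* were lost with aligned array medians (adjusted p = 0.385 and 0.11, over ranges from 0.00471 to 0.385 and from 0.00422 to 0.11), and so was that of *EBP2* (0.0562, the highest of a range that starts at 0.00165). *NSA2*, a factor needed between the nucleolar and nucleoplasmic stages, had 2068, 2899, 3510.4 and 3286 with gentamicin and 4363, 3747, 3295 and 4053 in controls. The groups overlap and *NSA2* was not called (log2 difference -0.41 ± 0.16 SE, adjusted p = 0.0605). It passed the threshold in 3 of the alternatives: after quantile normalization (0.0401), without control 3 (0.0476) and without gentamicin 7 (0.0353), over a range of 0.0353 to 0.387.

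All 3 nuclear GTPases were lower. *NOG1*, whose product probes the exit tunnel of the nascent subunit, had 306, 366, 365 and 342 with gentamicin and 954, 1057, 1234 and 1019 in controls, the largest decrease of the 49 tested genes (-1.63 ± 0.10 SE on the log2 scale). *NOG2*, which holds the binding place of Nmd3 until export, had 1519, 1501, 1598 and 1411 with gentamicin and 2146, 2261, 2592 and 2627 in controls. Its 2 groups do not overlap and differ 1.59-fold, while its second, untested probe set differed by -0.99 on the log2 scale, against -0.67 for the one tested. *NUG1* had 1176, 1175, 1117 and 1079.9 with gentamicin and 1667, 1416, 1555 and 1502 in controls, 1.35-fold lower (adjusted p = 0.0011). The call of *NUG1* was lost with aligned array medians (adjusted p = 0.0855, the highest of a range that starts at 0.000403).

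In the Rix1-Mdn1 step, 4 of 5 tested genes were lower and *MDN1* was not. *RIX1* had 303, 254, 326 and 272 with gentamicin and 763, 670.2, 533 and 707 in controls. *IPI3*, a second subunit of the Rix1 complex, had 185, 162, 184 and 152 with gentamicin and 339, 312, 365 and 291 in controls. Both show separate groups, with decreases of 2.31-fold and 1.91-fold. The third subunit, *IPI1*, was below the filter and had 140.0, 144, 176 and 174 with gentamicin and 204, 209, 224 and 235 in controls, 1.38-fold lower and without overlap (adjusted p without the filter = 0.00856).

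*RIX7*, an AAA ATPase that removes Nsa1 from the particle, had 528, 1041, 1078 and 961 with gentamicin and 1208, 1996, 2345 and 2057 in controls. Its arrays spread widely, with gentamicin 5 and control 1 each well below the rest of their group, yet the groups did not overlap and *RIX7* fell 2.13-fold (adjusted p = 0.00851). *SDA1*, needed for passage to the nucleoplasm, had 230.0, 213, 175 and 192 with gentamicin and 471, 443, 464 and 364 in controls, 2.15-fold lower with separate groups.

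*MDN1* encodes the dynein-like ATPase that docks on the Rix1 complex and pulls assembly factors off the particle. Its signals were 387, 458, 424 and 395 with gentamicin and 382, 379.9, 384 and 364 in controls. The 4 gentamicin values were all above the 4 control values, by a small margin, and the log2 difference was 0.14 ± 0.08 SE (95% interval -0.04 to 0.32), which was not called (limma adjusted p = 0.186). After quantile normalization the log2 difference was 0.37 (adjusted p = 0.00526), and with aligned array medians it was 0.38 (adjusted p = 0.00433), both called as higher, over a range of adjusted p from 0.00433 to 0.367 for all alternatives. With 14733 bases, *MDN1* has the longest gene of the 58 in the R64 gene table. Of the other 57 lengths, the longest was 3078 bases.

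**Figure D2:**
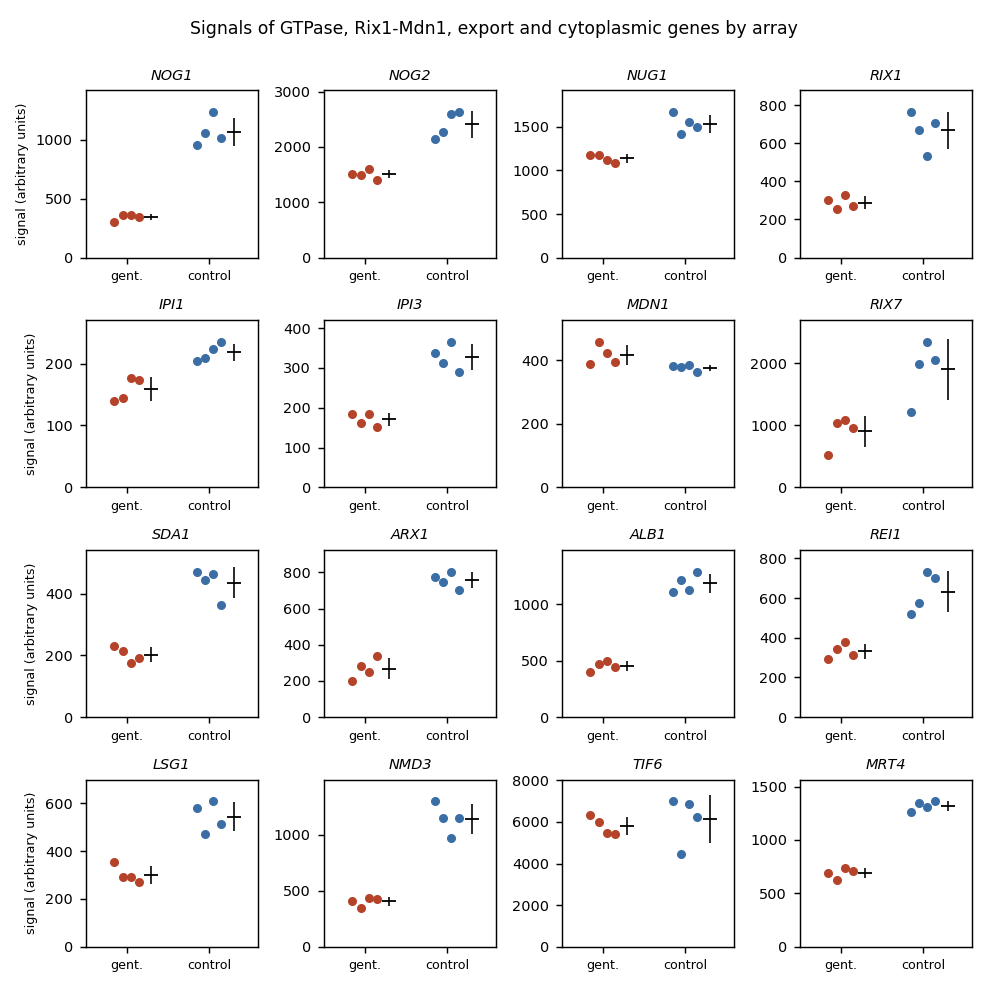
Signal of each array on a linear axis from 0, in arbitrary units, for the GTPase, Rix1-Mdn1, export and cytoplasmic genes, with gentamicin left and control right and bars for mean ± SD (n = 4 each). The groups are separate in all but *TIF6*, and *MDN1* is the one gene whose gentamicin points lie higher.

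Of the 7 genes of export and cytoplasmic maturation, 6 were lower, and *TIF6* was not called. *ARX1*, an export factor, had 201, 283, 248 and 336 with gentamicin and 774, 749, 805 and 702 in controls. *ALB1*, its partner, had 399, 468, 497 and 441 with gentamicin and 1113, 1211, 1125 and 1289 in controls. *NMD3*, the adaptor that links the subunit to the exportin Crm1, had 412, 345, 438 and 429 with gentamicin and 1299.6, 1149.7, 971 and 1147 in controls. These 3 genes were lower by 2.88-fold, 2.63-fold and 2.81-fold, and in each the groups are far apart.

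*REI1*, which clears Arx1 and Alb1 from the subunit in the cytoplasm, had 291, 345, 377 and 315 with gentamicin and 518, 574, 734 and 702 in controls. Its probe set is by its name of a class shared between transcripts. *LSG1*, the cytoplasmic GTPase that releases Nmd3, had 355, 289.9, 289.7 and 269.8 with gentamicin and 578, 472, 608 and 514 in controls. *MRT4*, which resembles the stalk protein P0 and is exchanged for it, had 689, 624, 740.2 and 705 with gentamicin and 1257, 1348, 1309.9 and 1361 in controls. All 3 had separate groups and fell by 1.89-fold, 1.80-fold and 1.92-fold.

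*TIF6* encodes the yeast form of eIF6, which stays on the large subunit and keeps it from joining the small one until released. It had 6339, 6006, 5481 and 5439.7 with gentamicin and 6993, 4469, 6856 and 6243 in controls. Control 2 lies below every gentamicin array, controls 1 and 3 lie above them all, and control 4 lies among them, so the groups overlap. The log2 difference was -0.06 ± 0.14 SE (95% interval -0.37 to 0.25, limma adjusted p = 0.747), a difference not larger than the spread between arrays. Its sign turned with aligned array medians (0.18), and the 95% interval does not reach -0.92, the median of the 49 genes.

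Set side by side, all 4 steps had negative medians. Median log2 differences were -0.87 for the 34 tested early nucleolar genes, -0.67 for the 3 GTPases, -1.09 for the 5 tested genes of the Rix1-Mdn1 step and -0.94 for the 7 export and cytoplasmic genes. With no filter they were -0.91 for 42 genes, -0.67 for 3, -1.01 for 6 and -0.94 for 7. With so few tested genes, the GTPase median was the value of *NOG2* and the Rix1-Mdn1 median that of *RIX7*. *RIX7* was placed in that step as an associated factor, and its arrays spread widely. The ranges overlapped widely, at -1.51 to -0.34, -1.63 to -0.43, -1.21 to 0.14 and -1.53 to -0.06 in that order. Early genes were called lower in 33 of 34 cases, GTPases in 3 of 3, Rix1-Mdn1 genes in 4 of 5 and late genes in 6 of 7. No test was made between steps, and the step of a gene left a wide spread within it, with an SD of the log2 difference of 0.28 over early genes and 0.51 over late ones.

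**Figure D3:**
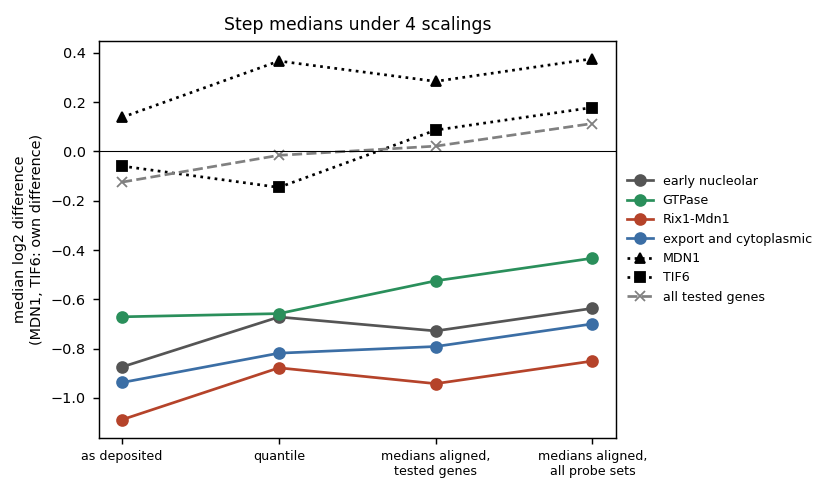
Median log2 difference, gentamicin minus control, of each step, with the own differences of *MDN1* and *TIF6* and the median of all tested genes, under 4 scalings of the arrays. The median of all tested genes was -0.12 as deposited, -0.02 after quantile normalization, 0.02 with aligned medians of tested genes and 0.11 with aligned medians of all probe sets. Step medians stay below 0 (the highest is -0.43, for GTPases), while *MDN1* stays above 0 and *TIF6* changes sign.

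Whether 2 genes changed unequally was tested in 10 pairs on the log2 ratio of their signals within each array, which a common scaling factor of that array does not change. The pairs were paralogs, partners, genes of the same enzyme class, or factors set against each other for different roles or stages. In 4 pairs the ratios of the groups did not overlap, each with an exact two-sided permutation p = 0.0286, the smallest possible with 4 against 4 arrays. Adjusted over the 10 pairs this was 0.0714, so no pair passed the threshold. Since the pairs were chosen with earlier results of these data known, their p-values are descriptive.

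On the log2 scale, the ratio of *MDN1* to *RIX1* was 0.35, 0.85, 0.38 and 0.54 on gentamicin arrays, against -0.999, -0.82, -0.47 and -0.96 on control arrays, a difference of 1.34. The ratio of *NMD3* to *TIF6* was -3.94, -4.12, -3.65 and -3.67 with gentamicin and -2.43, -1.96, -2.82 and -2.44 in controls, a difference of -1.43. *NOG1* to *LSG1* gave -0.21, 0.33, 0.33 and 0.34 with gentamicin and 0.72, 1.16, 1.02 and 0.99 in controls, a difference of -0.78. In each of these 3 pairs, all gentamicin ratios lay on one side of all control ratios. The same held for *NOP2* to *SPB1* (difference 1.17), where 3 of the 4 *SPB1* signals with gentamicin lie under the highest control for absent transcripts.

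In the other 6 pairs the groups overlapped. *ERB1* to *YTM1* gave -0.23, -0.36, -0.42 and -0.34 with gentamicin and -0.21, -0.23, -0.29 and -0.41 in controls (exact permutation p = 0.371, adjusted 0.464). Differences were -0.18 for *RPF2* to *RRS1* and -0.13 for *ARX1* to *ALB1* (exact permutation p = 0.486 and 0.429). For *SSF2*, 3 of the 4 gentamicin signals lie under the highest control for absent transcripts. The ratio differed by -0.24 for *NOG2* to *NUG1*, 0.36 for *SSF1* to *SSF2* and 0.21 for *DBP6* to *REI1* (exact permutation p = 0.114, 0.2 and 0.257). These p-values do not show that the genes of a pair changed equally.

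**Figure D4:**
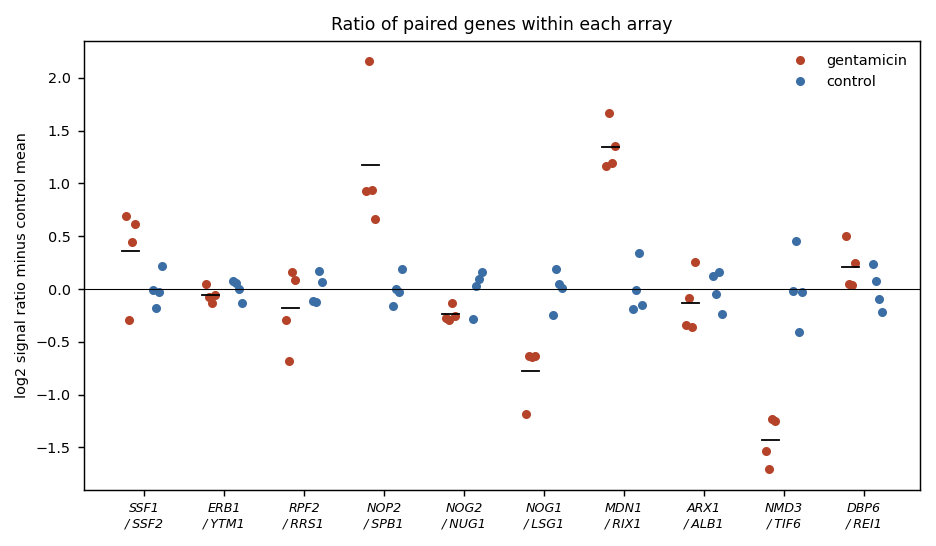
For each of 10 gene pairs, the log2 ratio of the 2 signals on each array is plotted after subtracting the control mean of that pair, with gentamicin arrays left and control arrays right, and a line at the gentamicin mean. The pairs *MDN1* to *RIX1* (1.34) and *NMD3* to *TIF6* (-1.43) lie farthest from 0, and *ERB1* to *YTM1* (-0.05) lies nearest.

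Other genes of large-subunit assembly, from a list that held none of the 58, were also lower for the most part. Of 29 tested, 24 were lower and 0 higher (limma adjusted p under 0.05; 24 lower and 0 higher unadjusted), with a median log2 difference of -0.68. Of all tested genes, 31.3% were lower and 15.5% higher at the same adjusted p. *YVH1*, the phosphatase-like protein that releases Mrt4 in the cytoplasm, fell 2.62-fold, to 186 ± 11.5 with gentamicin against 488 ± 54.2 in controls (SD, n = 4 each; limma adjusted p = 1.7e-05). *URB1*, a factor of the earliest particles, fell 1.76-fold, to 553 ± 30.7 against 972 ± 32.9 in controls (adjusted p = 3.34e-05), and *ECM1*, a factor of export, fell 1.98-fold, to 316 ± 26.2 against 624 ± 32.9 in controls (adjusted p = 3.46e-05).

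Of factors of the small subunit, 40S, 41 of 52 tested were lower and 0 higher by the same limma test (43 lower and 0 higher unadjusted), with a median of -0.76. At least 2-fold lower were 12 of the 52, against 2.45% of all tested genes. For genes of the large-subunit ribosomal proteins themselves, 42 of 76 had a probe set listing 1 gene, and a near-identical copy of a duplicated gene may share its signal. Of the 42, 20 were lower (47.6%, against 31.3% of all tested genes) and 0 higher by limma (23 lower and 0 higher unadjusted). Their median was -0.20, against -0.92 for the assembly factors and -0.12 for all tested genes. These are descriptions of lists on shared arrays, and the differences between lists were not tested.

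**Figure D5:**
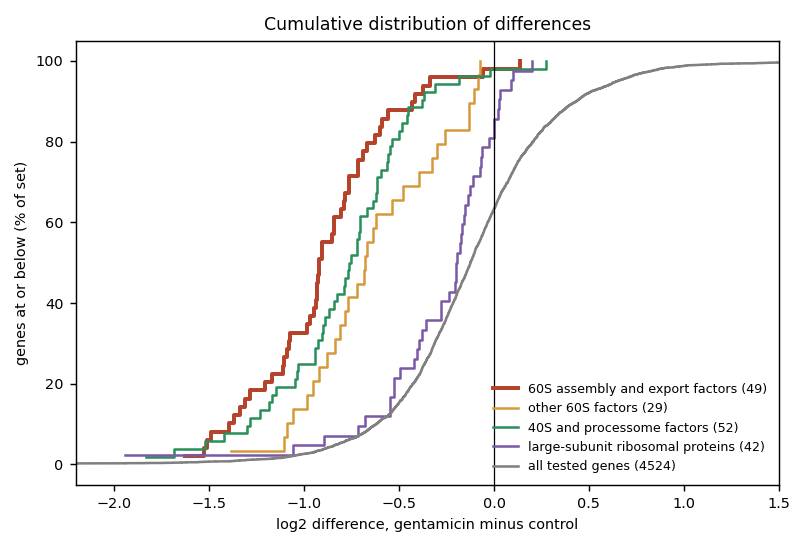
Cumulative share of genes (percent, vertical axis) at or below each log2 difference, gentamicin minus control, for the 49 tested assembly factors and for 29 other 60S factors, 52 factors of the 40S subunit, 42 large-subunit ribosomal protein genes and all 4524 tested genes. The medians run from -0.92 for the assembly factors over -0.76, -0.68 and -0.20 for 40S factors, other 60S factors and ribosomal protein genes to -0.12 for all tested genes, and the curves cross at their ends.

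Across the 49 tested genes, the log2 difference was more negative for dimmer probe sets, with Pearson's r = 0.36 and Spearman's rho = 0.31 between the difference and mean log2 signal. The same relation was seen over all 4524 tested genes (r = 0.30, rho = 0.34), and the points share the same 8 arrays. The mean log2 signal takes in both groups. A positive Pearson's r here therefore restates that signals varied more between genes with gentamicin than in controls, and is not a separate result. *TIF6* and *NSA2*, neither of them called, were the brightest of the 49. Their means were 5816 and 2941 with gentamicin and 6140 and 3864 in controls. *MDN1*, also not called, had means of 416 and 377. Gene length showed little relation to the difference (r = 0.15 and rho = -0.03 over 49 genes), with *MDN1* far from the rest in length.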

How the data were processed

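The authors deposited 1 linear signal intensity for each probe set of each array, with MAS5 named in the submitters' processing notes and its version and settings not given in the sources used here. Total RNA had been copied from an oligo-dT primer into biotin-labelled cRNA for 1-colour Affymetrix yeast arrays, per the labels' protocols. After trimming 2% of probe sets at each end, every array averaged 999.7, which shows a common scaling. The number of arrays limits the precision.

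Probe sets were named from the platform annotation and updated to the R64 gene table (all 6504 with 1 gene matched; 328 with several genes were not named). Signals were taken to log2 with no offset, and limma 3.58.1 in R 4.3.3 (variance trend on, p-values adjusted by Benjamini-Hochberg) compared the groups over 4524 genes. A call is an adjusted p under 0.05. Absent-transcript controls were 16 mouse, trpn and antisense probe sets. Those for dap, lys, phe and thr were left out, other than antisense ones, because they carried signal on every array. Gene pairs and array measures had exact two-sided permutation tests. The fit was first tested on simulated data. Groups share no replicate numbers, and the labels give no batch. The members, lists, pairs and tests were chosen with earlier results of these data known.

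Array values are given, in each role, for the members with the largest and smallest decrease, for members not called or below the filter, for the GTPase, Rix1-Mdn1 and late steps and for gene pairs. Others have a fold change, and 3 other 60S factors, called with the smallest adjusted p, are named. Alternatives changed the normalization (quantile, aligned array medians), added an offset of 8.17, dropped the filter or left out the lowest 40%, dropped the variance trend, weighted arrays, took the median over probe sets, lowered the adjusted p to 0.01, or left out each array. Chosen after seeing the data were aligned medians of tested genes, and setting to missing any value over 3 log2 units below the other 3 arrays.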

Additional observations from a re-analysis of the deposited data

Results flagged for a closer look

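In 7 of 116 groups of 4 arrays, 1 array stood apart from the other 3 by more than Dixon's 95% criterion on the log2 scale, which chance gives in about 1 of 20 groups. *DBP9* on gentamicin 8 had a signal of 0.0229, against 331 to 348 on the other gentamicin arrays. *RIX7* on gentamicin 5 had 528, against 961 to 1078. *DBP10* on gentamicin 6 had 399.8, against 343 to 345, and *MAK21* on gentamicin 6 had 286, against 222 to 229. Among controls, *DBP6* had 1455 on control 3, against 1272 to 1292, *NOP12* had 218 on control 3, against 181 to 183, and *NOP7* had 276 on control 4, against 238 to 243.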

How the results depend on the processing

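After quantile normalization the median log2 difference of the tested members was -0.70 (early nucleolar -0.67, Rix1-Mdn1 -0.88), 1 member was called higher, *MDN1*, and 894 genes were lower in all. With aligned array medians it was -0.68 (early -0.64, GTPases -0.43, Rix1-Mdn1 -0.85, late -0.70), 1 member was higher, and 546 genes were lower and 1369 higher. With aligned medians of the tested genes, it was -0.77 (early -0.73, GTPases -0.52, late -0.79), 1 member was higher, and 799 genes were lower and 1079 higher. Of all called genes, 66.8% were lower as deposited, against 51.3%, 28.5% and 42.5% under these scalings, where 45, 41 and 43 members were lower. The cause was not tested. With the lowest 40% left out, 28 members were tested and 26 were lower (median -0.78, early -0.74, late -1.17), fewer because fewer genes entered. The median over probe sets gave -0.83 for GTPases, through *NOG2*, and an adjusted p under 0.01 left 915 genes lower. Leaving out 1 array at a time gave member medians from -0.93 to -0.86 and 46 or 47 members lower. *TIF6* changed sign with aligned array medians (0.18), aligned medians of tested genes (0.087), array weights (0.044), and with 1 array left out ranged from -0.20 to 0.011, turning without control 1 (0.011) or control 3 (0.0011), and was not called in any of these. Of 49 members, 41 kept their direction and side of the threshold in every one of the 19 alternatives that they entered. The planned search for promoter motifs was not run. No paired analysis was possible because the groups share no replicate numbers. Signal over background limits *NOC2*, *SSF2*, *SPB1* and *NOP12*.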

Other observations

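Several members shared a low array in both groups. In *RIX7*, *EBP2*, *NOP8*, *BRX1*, *DRS1*, *MAK5*, *NOG1*, *ALB1* and *REI1*, gentamicin 5 was the lowest gentamicin array and control 1 the lowest control. *EBP2* had 552, 839, 1009 and 749 with gentamicin and 949, 1318, 1678 and 1375 in controls, and *NOP8* had 159, 271, 318 and 319.6 with gentamicin and 377, 527, 584 and 493 in controls. This pattern was noticed in the data and held for 9 of 49 tested members (18.4%) and for 14.9% of all tested genes.

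Array control probe sets of 25S ribosomal RNA number 5, and an oligo-dT primer does not select this RNA. The probe set 25S a had 228 ± 67.8 with gentamicin and 107 ± 19.98 in controls (SD, n = 4 each; exact permutation p = 0.0286, adjusted over 10 ribosomal RNA probe sets 0.0714). The probe sets 18S b, 18S d and 25S b had the same exact permutation p. In all 10 probe sets of 18S and 25S the mean was higher with gentamicin, and none passed after adjustment. In 6 of the 10 both group means lay under 89.5, the highest signal of controls for absent transcripts, and in 2 more the control mean did, so that 2 were above it in both groups.

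Members lie next to a 40S factor gene in 6 places on the chromosomes of the R64 gene table. *NSA2* and *LCP5* are divergent neighbours with log2 differences of -0.41 and -1.03, and *SSF1* and *RRP3* are divergent neighbours with -0.60 and -0.38. *NMD3* and *DBP8* are neighbours on the same strand, with -1.49 and -0.59. *RIX1* and *UTP9* (-1.21 and -0.79) and *NOG2* and *ESF2* (-0.67 and -0.56) are also on the same strand, and *RRP15* and *NOC4* (-0.79 and -1.23) are convergent. The differences within these 6 pairs were not tested.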
